A study of Mus musculus with 10 samples.

Results

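A set of 10 genes, named for the receptors and alarmins of mature neutrophils, was followed in leukemic mouse spleens. The genes are S100a8, S100a9, Il1b, Retnlg, Cxcr2, Csf3r, Trem1, Fpr1, Itgam and Cebpe. Cebpe encodes a transcription factor of earlier stages, and not all of the genes are limited to neutrophils. They were chosen by symbol, and 10 of the 10 had a row among the 20813 genes of the deposited table. The spleens came from sublethally irradiated recipients that had been given T-cell acute lymphoblastic leukemia (T-ALL) cells with a conditional Sirt1 allele, a deacetylase gene, so both groups carried that allele. The 5 spleens whose genotype label is Sirt1 deleted have titles that begin with TMX, and the 5 controls have titles that begin with VEH. The protocol names tamoxifen, at 3 mg per mouse in corn oil, or corn oil alone, given into the peritoneum, so genotype and drug cannot be told apart. The labelled strain is C57BL/6. The Cre driver, the age of the mice and whether the spleens held 1 or several independent leukemias are not given in the sources used here, so p-values measure only the spread between these samples. Spleens were made into single-cell suspensions and red blood cells were lysed before RNA isolation, and recipients irradiated below the lethal dose keep blood-forming cells of their own.

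Neutrophils are short-lived granulocytes that form in the marrow, and in disease also in the spleen, under the growth factor G-CSF. As they mature they switch off granule proteins, acquire receptors for chemokines and bacterial peptides, and store the calcium-binding proteins S100A8 and S100A9 in the cytosol, from which they are released as alarm signals. These genes are known from myeloid cells rather than from T cells. In bulk samples such as these, more neutrophils and more RNA per neutrophil cannot be told apart.

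The normalized counts of a spleen summed to between 33660244 and 34471963. Sirt1 itself did not separate the groups, at 1873 ± 146 normalized counts in the labelled Sirt1-deleted spleens and 1810 ± 62.5 in controls (SD, n = 5 each; log2 difference 0.05, exact two-sided permutation p = 0.413). A gene-level value does not show which exons were read, so the deletion label could not be checked from it. The group is therefore called labelled Sirt1-deleted, or deleted for short, and replicates carry the number in their titles. All 19 T lineage markers listed were detected, and their summed level was 251754 to 272465 normalized counts in deleted and 246128 to 264516 in control spleens. Its largest parts moved in opposite directions. Thy1 was at 53217 ± 3677 in controls and 79592 ± 17084 in deleted spleens, and Tcf7 at 77942 ± 2611 and 58426 ± 5636. One library stood apart: deleted replicate 10 held 2771 normalized counts of the liver transcript Alb, against 5.54 to 14.1 in the other 9 spleens, and 274 of Ttr against 0 to 1.77. This library was also the lowest of its group for 8 of the 10 neutrophil genes, so the values without it are given below.

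The 5 promoters that follow belong to genes described below and are the only ones among the 9 matched in the RefSeq promoter table (GRCm38.p6) that held a searched motif. Each window runs from 250 bases before to 50 bases after the RefSeq start, 5′ to 3′ on the strand of the gene. Capitals mark matches to TTGCNNAA, a core bound by C/EBP factors, or GAGGAAG, a core bound by PU.1, on either strand.
S100a8 (chr3:90668821-90669120, plus strand): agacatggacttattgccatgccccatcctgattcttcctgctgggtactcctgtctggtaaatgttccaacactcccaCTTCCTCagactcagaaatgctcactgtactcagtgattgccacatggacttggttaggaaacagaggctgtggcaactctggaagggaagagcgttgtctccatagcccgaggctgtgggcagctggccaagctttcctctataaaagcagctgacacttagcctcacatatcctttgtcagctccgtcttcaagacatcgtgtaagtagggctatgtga
S100a9 (chr3:90695672-90695971, minus strand): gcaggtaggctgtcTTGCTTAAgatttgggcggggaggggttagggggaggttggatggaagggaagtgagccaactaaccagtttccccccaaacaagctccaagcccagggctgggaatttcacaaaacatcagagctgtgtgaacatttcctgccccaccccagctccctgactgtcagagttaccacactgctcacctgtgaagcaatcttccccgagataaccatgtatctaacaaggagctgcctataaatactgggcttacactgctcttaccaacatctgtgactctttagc
Retnlg (chr16:48872358-48872657, plus strand): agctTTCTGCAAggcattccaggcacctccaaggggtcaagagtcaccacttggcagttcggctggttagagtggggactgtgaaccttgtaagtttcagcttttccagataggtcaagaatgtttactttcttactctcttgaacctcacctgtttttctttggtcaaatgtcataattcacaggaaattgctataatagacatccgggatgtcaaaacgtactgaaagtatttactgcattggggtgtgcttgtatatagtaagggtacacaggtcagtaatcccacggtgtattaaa
Csf3r (chr4:126024409-126024708, plus strand): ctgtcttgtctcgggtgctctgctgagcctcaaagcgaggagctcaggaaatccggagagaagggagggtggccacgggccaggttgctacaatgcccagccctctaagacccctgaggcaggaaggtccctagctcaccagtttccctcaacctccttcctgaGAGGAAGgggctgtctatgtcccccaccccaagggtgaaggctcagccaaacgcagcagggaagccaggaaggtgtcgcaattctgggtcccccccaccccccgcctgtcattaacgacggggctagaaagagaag
Itgam (chr7:128062390-128062689, plus strand): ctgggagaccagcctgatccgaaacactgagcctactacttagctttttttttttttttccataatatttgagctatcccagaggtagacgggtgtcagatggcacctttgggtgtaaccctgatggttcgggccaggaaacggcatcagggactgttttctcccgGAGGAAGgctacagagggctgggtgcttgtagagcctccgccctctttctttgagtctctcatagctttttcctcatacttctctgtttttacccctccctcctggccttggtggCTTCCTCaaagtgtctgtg

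TTGCNNAA was found in 2 of the 9 promoters (S100a9 and Retnlg) and in 10.8% of the 32851 promoters of the same length in the table. GAGGAAG was found in 3 of the 9 (S100a8, Csf3r and Itgam) and in 13.6% of all. The motifs did not overlap each other in these windows. A match is only a run of letters, and the S100a8 and S100a9 windows, whose genes are neighbours on chromosome 3, held different ones. No promoter was matched for Cebpe.

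The neutrophil genes were higher in the labelled Sirt1-deleted spleens. Each of the 10 rose (limma on log2(normalized count + 1), Benjamini-Hochberg adjusted p under 0.05 over 15276 tested genes), where 16.8% of all tested genes were called as higher and 36.1% in either direction. Their log2 differences ran from 0.97 for Fpr1 to 2.31 for S100a9, with a median of 1.64 beside -0.00014 for all tested genes. For 8 of the 10 the 5 deleted spleens lay above all 5 controls, a separation upward found for 11.1% of tested genes. The exceptions were Trem1 and Fpr1, in which deleted replicate 10 fell among the controls. All 10 passed the filter of a mean of at least 10 normalized counts. The control mean of Trem1 was below it, so Trem1 entered the test only through the deleted spleens and its call was partly fixed by the filter.

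**Figure D1:**
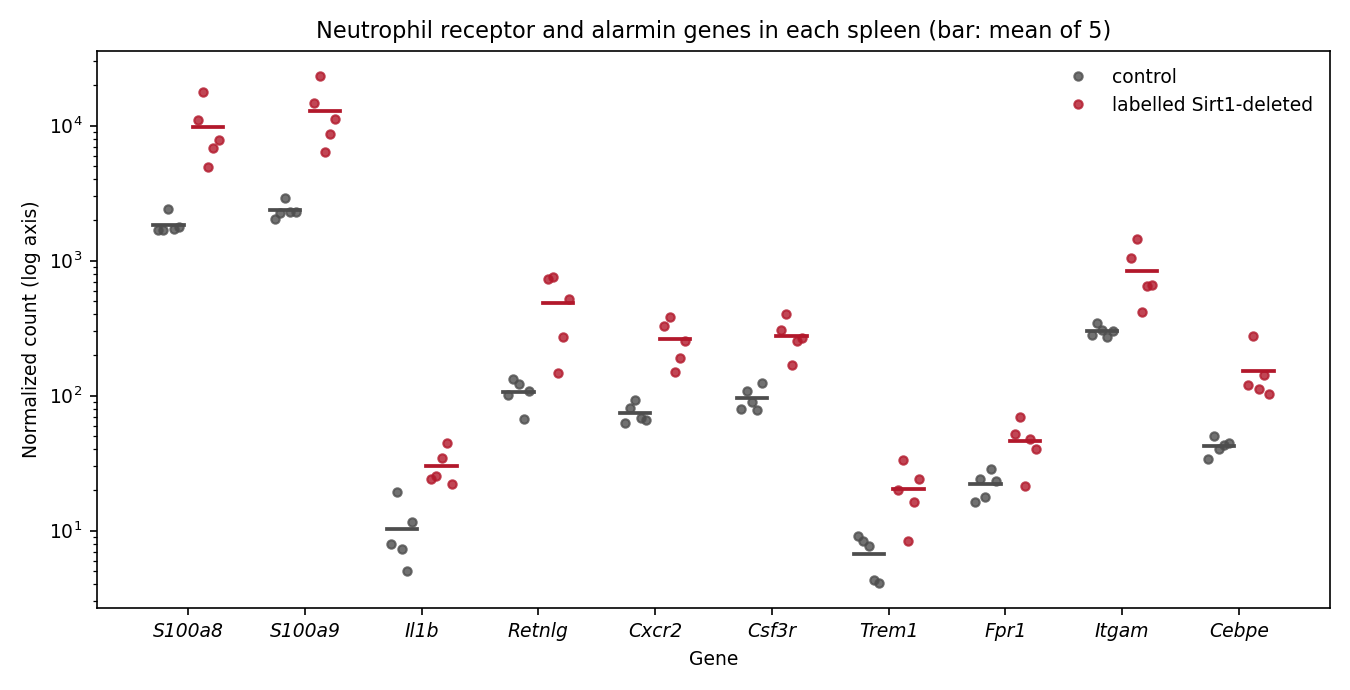
Normalized count (vertical, log axis) of the 10 genes in each spleen, with controls in grey, labelled Sirt1-deleted spleens in red and a bar at the mean of 5. The red points lie above all grey points except for Trem1 and Fpr1, and they are more widely spread than the grey ones except for Il1b.

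The alarmins had the largest log2 differences of the 10 genes. S100a8 (ENSMUSG00000056054.9, chromosome 3, 90668978 to 90670035, plus strand) and S100a9 (ENSMUSG00000056071.12, chromosome 3, 90692632 to 90695721, minus strand) encode the subunits of calprotectin, which binds calcium and zinc. S100a8 measured 11075, 17877, 4938, 6826 and 7844 normalized counts in deleted replicates 7, 8, 10, 11 and 12. In control replicates 2 to 6 it measured 1689, 1682, 2403, 1713 and 1761. Even the lowest deleted spleen was 2.05 times the highest control. S100a8 rose by a log2 difference of 2.26 (95% interval 1.68 to 2.84; limma adjusted p = 2.62e-04), and the ratio of the group means was 5.25.

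S100a9 followed the same order of deleted spleens. It measured 14637, 23291, 6333, 8673 and 11106 normalized counts in deleted replicates 7, 8, 10, 11 and 12, and 2024, 2248, 2912, 2301 and 2290 in control replicates 2 to 6. The log2 difference was 2.31 (95% interval 1.73 to 2.89; limma adjusted p = 2.27e-04). The ratio of S100a8 to S100a9 within a spleen was nearly fixed, at 0.706 to 0.787 in deleted and 0.745 to 0.834 in control spleens, and the difference of their log2 differences was -0.05 (exact permutation p = 0.302, adjusted p = 0.438 over 45 pairs). Together both alarmins made up 90.6% to 92.4% of the summed normalized counts of the 10 genes in deleted spleens and 83.6% to 88.6% in controls.

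Il1b and Retnlg encode secreted proteins. Il1b (ENSMUSG00000027398.13, chromosome 2, 129364570 to 129371139, minus strand) encodes the inflammatory cytokine interleukin-1 beta. It measured 24.0, 25.4, 34.6, 44.9 and 22.2 normalized counts in deleted replicates 7, 8, 10, 11 and 12. Control replicates 2 to 6 held 7.99, 19.5, 7.36, 5.06 and 11.6. Here replicates 11 and 10, low for most of the other genes, were the highest, and the controls were the more scattered group (log2 SD 0.67 against 0.41). The log2 difference was 1.54 (95% interval 0.79 to 2.30; limma adjusted p = 0.00536). The annotation places an antisense gene, Il1bos, across Il1b; the libraries are strand-specific per the labels, but the strand setting of the counting is not given.

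Retnlg (ENSMUSG00000022651.6, chromosome 16, 48872621 to 48874496, plus strand) encodes a resistin-like protein made abundantly by mature mouse neutrophils. Its values in deleted replicates 7, 8, 10, 11 and 12 were 727, 758, 147, 270 and 523 normalized counts, and in control replicates 2 to 6 they were 102, 132, 123, 67.1 and 107. No other gene of the 10 varied as much among the deleted spleens, where the highest was 5.17 times the lowest, and replicate 10 exceeded the highest control by a factor of only 1.11. Retnlg rose by 1.97 (95% interval 1.12 to 2.82; limma adjusted p = 0.00300).

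The 5 receptors rose by log2 differences of 0.97 to 1.74. Cxcr2 (ENSMUSG00000026180.8, chromosome 1, 74153989 to 74161246, plus strand), the receptor for the chemokines that draw neutrophils out of the marrow, measured 331, 382, 149, 191 and 255 normalized counts in deleted replicates 7, 8, 10, 11 and 12. Controls 2 to 6 held 62.4, 81.4, 92.5, 67.9 and 66.3. The groups were clearly apart, with a log2 difference of 1.74 (95% interval 1.23 to 2.25; limma adjusted p = 4.81e-04). Csf3r (ENSMUSG00000028859.14, chromosome 4, 126024550 to 126044440, plus strand), the receptor for G-CSF, measured 305, 401, 167, 253 and 269 in the deleted and 79.1, 109, 90.1, 77.8 and 124 in the control spleens in the same order. Csf3r rose by 1.499 (95% interval 1.04 to 1.96; limma adjusted p = 6.08e-04), and its spread among the deleted spleens was the smallest of the 5 receptors (log2 SD 0.46).

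Itgam (ENSMUSG00000030786.18, chromosome 7, 128062640 to 128118491, plus strand) encodes CD11b, the alpha chain of the Mac-1 integrin, which macrophages, monocytes and natural killer cells carry as well. It measured 1047, 1453, 418, 646 and 656 normalized counts in deleted replicates 7, 8, 10, 11 and 12, and 279, 345, 306, 271 and 299 in control replicates 2 to 6. The controls were the tightest of any of the 10 genes (log2 SD 0.14), and the log2 difference was 1.36 (95% interval 0.80 to 1.92; limma adjusted p = 0.00236). Gm49368 overlaps Itgam on the same strand, at 0 to 49.9 normalized counts over the 10 spleens, so reads could be shared between them.

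Trem1 and Fpr1 were low and their groups overlapped. Trem1 (ENSMUSG00000042265.13, chromosome 17, 48232768 to 48246924, plus strand), an activating receptor that amplifies inflammatory signals, measured 19.99, 33.1, 8.39, 16.3 and 24.0 normalized counts in deleted replicates 7, 8, 10, 11 and 12. Controls 2 to 6 held 9.08, 8.42, 7.77, 4.28 and 4.13. Deleted replicate 10 was thus below control replicates 2 and 3, while the other 4 deleted spleens were above every control. The log2 difference was 1.40 (95% interval 0.57 to 2.23; limma adjusted p = 0.0136; exact permutation p = 0.0238). An exact rank-sum test did not call it (adjusted p = 0.0823). The unnamed gene AC241601.2 overlaps Trem1 on the other strand.

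Fpr1 (ENSMUSG00000045551.7, chromosome 17, 17876471 to 17883940, minus strand), the receptor for bacterial formyl peptides, measured 52.0, 70.0, 21.5, 48.2 and 40.2 normalized counts in deleted replicates 7, 8, 10, 11 and 12. In controls 2 to 6 it measured 16.4, 24.0, 17.8, 28.5 and 23.3. Deleted replicate 10 lay inside the control range. The log2 difference of 0.97 (95% interval 0.33 to 1.61; limma adjusted p = 0.0225) was the smallest of the 10 and the least secure: the adjusted p was 0.0852 after quantile normalization, 0.124 with the exact rank-sum test, 0.0569 without control replicate 2, 0.0550 without deleted replicate 7 and 0.0559 without deleted replicate 8.

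Cebpe (ENSMUSG00000052435.7, chromosome 14, 54710360 to 54712174, minus strand) encodes the transcription factor C/EBP epsilon, which drives the step from promyelocytes to later neutrophil stages. It measured 120, 278, 113, 143 and 103 normalized counts in deleted replicates 7, 8, 10, 11 and 12, and 33.7, 50.04, 40.0, 42.8 and 44.5 in control replicates 2 to 6. Deleted replicate 8 stood well above the other deleted spleens, and the lowest of these was still 2.07 times the highest control. The log2 difference was 1.73 (95% interval 1.20 to 2.26; limma adjusted p = 6.19e-04).

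**Figure D2:**
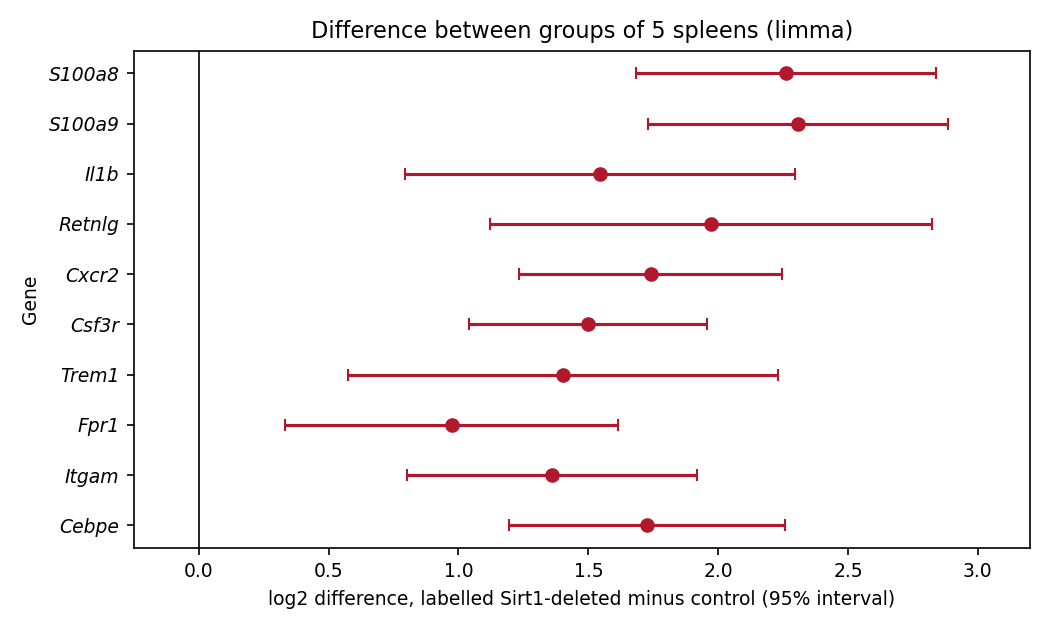
Log2 difference between labelled Sirt1-deleted and control spleens (horizontal) for each gene, with the limma estimate as a point and its 95% interval as a bar. S100a8 and S100a9 lie at 2.26 and 2.31, and Fpr1, at 0.97, lies closest to 0.

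The deleted spleens kept a common order over most of these genes. Replicate 8 was the highest of its group for 9 of the 10 genes, and replicate 10 the lowest for 8. Replicate 7 ranked 2 for 7 genes, replicate 12 ranked 3 for 6 and replicate 11 ranked 4 for 7. Il1b broke this order, with replicate 11 at rank 1 and replicate 10 at rank 2. The correlation of the deviations of a gene from its group means with the mean of the other 9 genes, over the 10 spleens, was 0.67 to 0.97 for every gene but Il1b, for which it was -0.16. These correlations are descriptions, since the genes share libraries and scaling.

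Spread was wider in the deleted group for 9 of the 10 genes, Il1b being the exception, and over all tested genes for 66.7%. The median log2 SD of the 10 genes was 0.66 in deleted and 0.26 in control spleens, beside 0.18 and 0.13 for the median tested gene. Without deleted replicate 10, log2 differences were as large or larger for all but Il1b: 2.47 for S100a8, 1.67 for Trem1, 1.22 for Fpr1 and 1.48 for Il1b. Then 10 genes were called and 10 of 10 did not overlap. That separation was fixed by the omission, since replicate 10 was the only deleted spleen that had fallen among the controls. Without replicates 10 and 11 together the same counts were 10 and 10, S100a9 stood at 2.74 and Il1b at 1.26. All tested genes called grew as well, from 5518 with all spleens to 6259 without replicate 10 and 6937 without both. The share of tested genes that did not overlap was not counted in these smaller sets, where separation is easier to reach. Leaving out low spleens raises most differences, and leaving out a high one lowers them. Without deleted replicate 8, S100a8 stood at 2.01, S100a9 at 2.06 and Fpr1 at 0.80. Fpr1 was then not called (limma adjusted p = 0.0559), and all tested genes called numbered 4804.

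**Figure D3:**
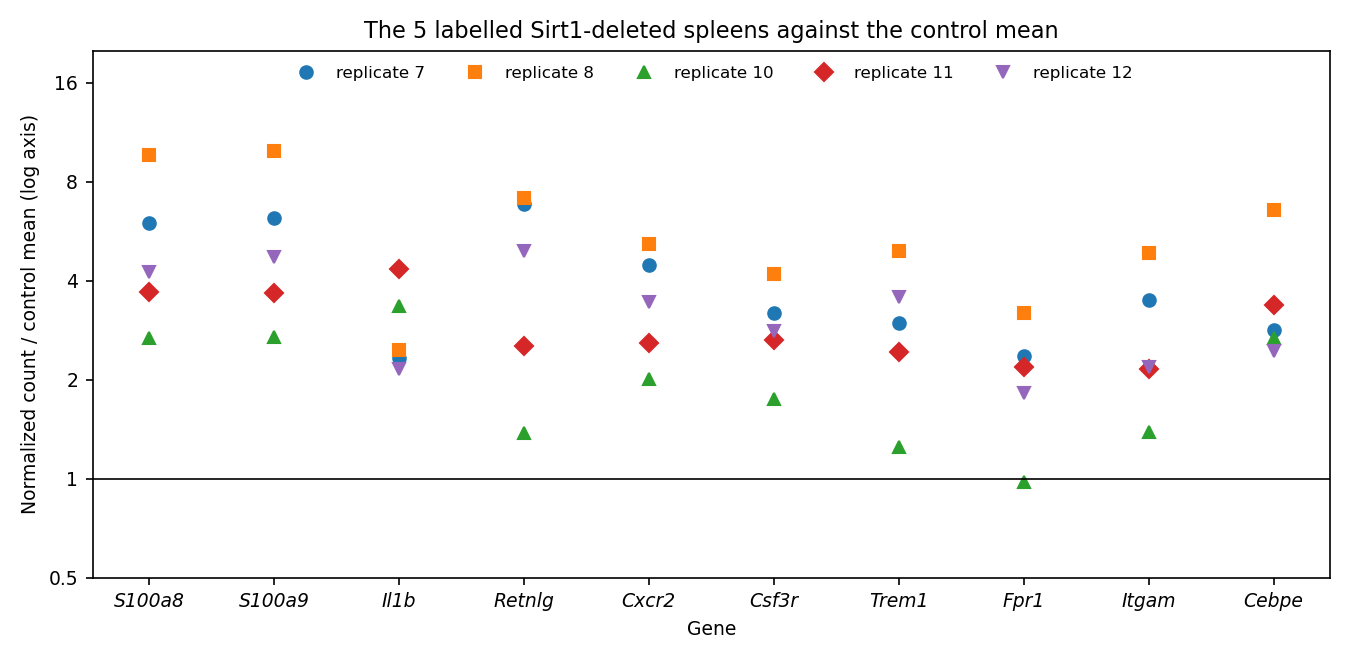
Normalized count of each labelled Sirt1-deleted spleen divided by the control mean of that gene (vertical, log axis), 1 symbol per replicate. Replicate 8 is at the top and replicate 10 at the bottom for most genes, whereas for Il1b replicates 11 and 10 lead.

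The size of the rise was compared between genes through their ratio within each spleen, as a difference of log2(normalized count + 1). The scaling of samples cancels in such a ratio except for the added 1, which matters most for low genes. Of 45 pairs, 10 had ratios that differed between the groups (exact two-sided permutation of the group labels, adjusted p = 0.0357 each, from the smallest possible p of 0.00794). In 8 of these an alarmin had risen more than a receptor. The S100a8 to Itgam ratio was 10.6 to 12.3 in deleted and 4.87 to 7.85 in control spleens, a log2 difference of 0.90. S100a9 exceeded Cxcr2 by 0.57, Csf3r by 0.81 and Fpr1 by 1.33. The remaining 2 pairs set Fpr1 below Csf3r (by 0.53) and Cebpe (by 0.75). No pair with Retnlg, Il1b or Trem1 passed.

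With 45 pairs at least 8 must reach the smallest p, so the calls were fragile. The count fell to 0 without control replicate 5 or without any 1 of the deleted replicates. In those 6 fits 14 to 19 pairs had an unadjusted p under 0.05, among them the same 10 pairs, with the same sign.

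**Figure D4:**
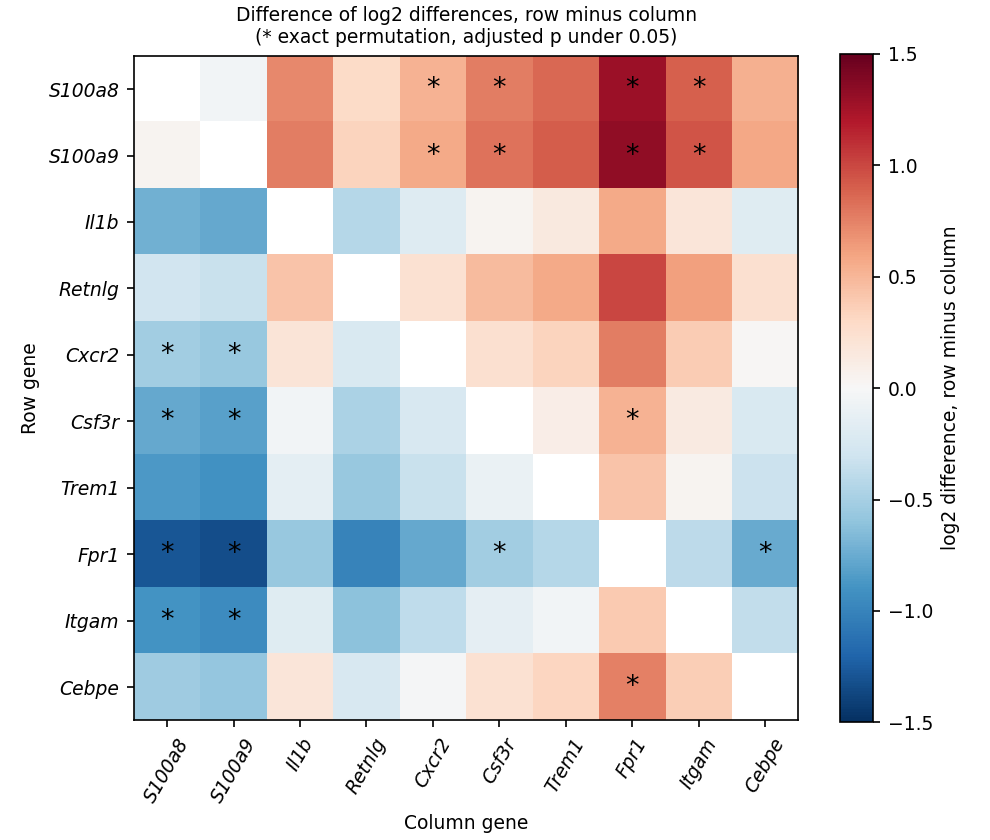
Difference of log2 differences for each pair of genes, row gene minus column gene, with red where the row gene rose more. Asterisks mark the 10 pairs past the threshold, which lie mainly where S100a8 and S100a9 meet the receptors.

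Levels can be set side by side only per length. Per kilobase of the longest coding transcript in GENCODE M21, the control order was S100a9 (4538 ± 638 normalized counts per kb, SD, n = 5), S100a8 (3806 ± 640), Retnlg (179 ± 42.0), Itgam (64.1 ± 6.17), Cebpe (34.0 ± 4.83), Csf3r (27.6 ± 5.73), Cxcr2 (24.3 ± 4.12), Fpr1 (16.6 ± 3.74), Il1b (7.61 ± 4.17) and Trem1 (2.25 ± 0.787). The ranges of S100a9 and S100a8 overlapped, as did those of each neighbouring pair from Cebpe down to Il1b. Within each control spleen, however, neighbouring genes kept this order, except that Cxcr2 was above Csf3r in control replicate 4. S100a9 was above S100a8 in every deleted spleen too. In the deleted spleens the order was the same, except that Cxcr2 (85.9 ± 31.5) and Csf3r (80.2 ± 24.4) changed places within their overlap. The alarmins reached 24679 ± 12750 per kb for S100a9 and 19984 ± 10449 for S100a8. The next gene, Retnlg, reached 818 ± 458.

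Other neutrophil receptors and receptor partners moved mostly in the same direction. Of 27 tested, 18 rose, 1 fell and 8 did not pass, with a median log2 difference of 1.27. The largest rises were in Ly6g, a neutrophil surface antigen (20.9 ± 8.81 to 223 ± 79.5 normalized counts, log2 difference 3.42, limma adjusted p = 1.15e-04), Mrgpra2b (2.30) and the complement receptor gene C5ar1 (2.04). Mrgpra2b and Clec4d, another of the 18, had control means below 10 and entered the test only through the deleted spleens. Itgal, the alpha chain of the lymphocyte integrin LFA-1, fell by 0.28 on the log2 scale (limma adjusted p = 0.00227). Partner chains, picked after their values were seen, differed: Tyrobp, the signalling adaptor of TREM1, rose by 1.61 (92.5 ± 12.2 to 290 ± 73.8), while Itgb2, the beta chain that CD11b shares with LFA-1, was at 5700 ± 127 in controls and 5775 ± 873 in deleted spleens (log2 difference 0.01, limma adjusted p = 0.967).

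Of 14 listed ligands of the receptors, 10 were tested, 3 rose, none of these 10 fell and 7 did not pass. Without control replicate 2, 5 were called, a count that holds rises and falls together. The 3 were Pglyrp1, a peptidoglycan-binding granule protein described as a TREM1 ligand (153 ± 34.3 to 1085 ± 609 normalized counts, log2 difference 2.66, limma adjusted p = 3.70e-04), Anxa1, a ligand of formyl peptide receptors (2.03), and C3, whose fragment iC3b binds Mac-1 (1.48). The CXCR2 ligands Cxcl2, Cxcl3 and Cxcl5 and the G-CSF gene Csf3 were below the filter, with group means of at most 4.86 normalized counts. Cxcl1 ranged from 0 to 106 over the 10 spleens with no separation (limma adjusted p = 0.712), and another CXCR2 ligand, Ppbp, was at 49.1 ± 17 in controls and 25.04 ± 19.6 in deleted spleens (limma adjusted p = 0.0607). Icam1, which also binds Mac-1, had a log2 difference of 0.03 (limma adjusted p = 0.845). The fibrinogen genes Fga, Fgb and Fgg were high only in the library that also held Alb, deleted replicate 10.

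Around Il1b, 6 of 13 tested genes of the interleukin-1 pathway rose, 2 fell and 5 did not pass. Il1r2, a decoy receptor carried by neutrophils, rose by 1.98 (limma adjusted p = 0.00465), Il18 by 1.23 and Casp1, the protease that matures both cytokines, by 1.07. The signalling receptor Il1r1 fell by 0.79 on the log2 scale (593 ± 181 to 338 ± 81.9 normalized counts) and its co-receptor Il1rap fell by 0.42. Among other S100 genes and receptors for S100A8/A9, 5 of 9 tested rose and 4 did not pass. S100a6 rose by 1.81, S100a11 by 1.72 and S100a3 by 1.31, less than S100a8 and S100a9 did, a difference that was not tested. The control mean of S100a3 was below 10. The count was 2 with the exact rank-sum test and 3 without control replicate 5 or deleted replicate 8.

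Cebpe stood among granulocyte transcription factors of which 5 of 10 rose, 2 fell and 3 did not pass. Spi1, which encodes PU.1, rose by 1.33 (143 ± 16.3 to 381 ± 147 normalized counts), Cebpd by 1.24 and Cebpa by 1.18. Myb and Gfi1, which T cells and T-ALL cells also express, fell by 0.22 and 0.21. Granule genes moved with the receptors. Of 11 genes of secondary and tertiary granules 10 rose, led by Mmp9 (2.91), Ltf (2.83) and Mmp8 (2.59), and the median was 2.20. Of 5 tested genes of primary granules, made in precursors, 4 rose, with Prtn3 at 2.08, Ms4a3 at 1.95 and Ctsg at 1.91. Elane did not pass (limma adjusted p = 0.213). The count of 4 was 1 with the exact rank-sum test and 2 without control replicate 2. Of 16 tested other transcripts of mature neutrophils 15 were called higher, but 5 of these (BC100530, Stfa2l1, Stfa2, Stfa3 and Stfa1) had control means below 10 and entered the test only through the deleted spleens, so their calls were partly fixed by the filter. BC100530 went from 4.199 ± 2.44 to 91.6 ± 83.9 normalized counts, and these 5 belong to a cluster of near-identical stefin genes between which reads may be shared. With the exact rank-sum test 7 were called.

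**Figure D5:**
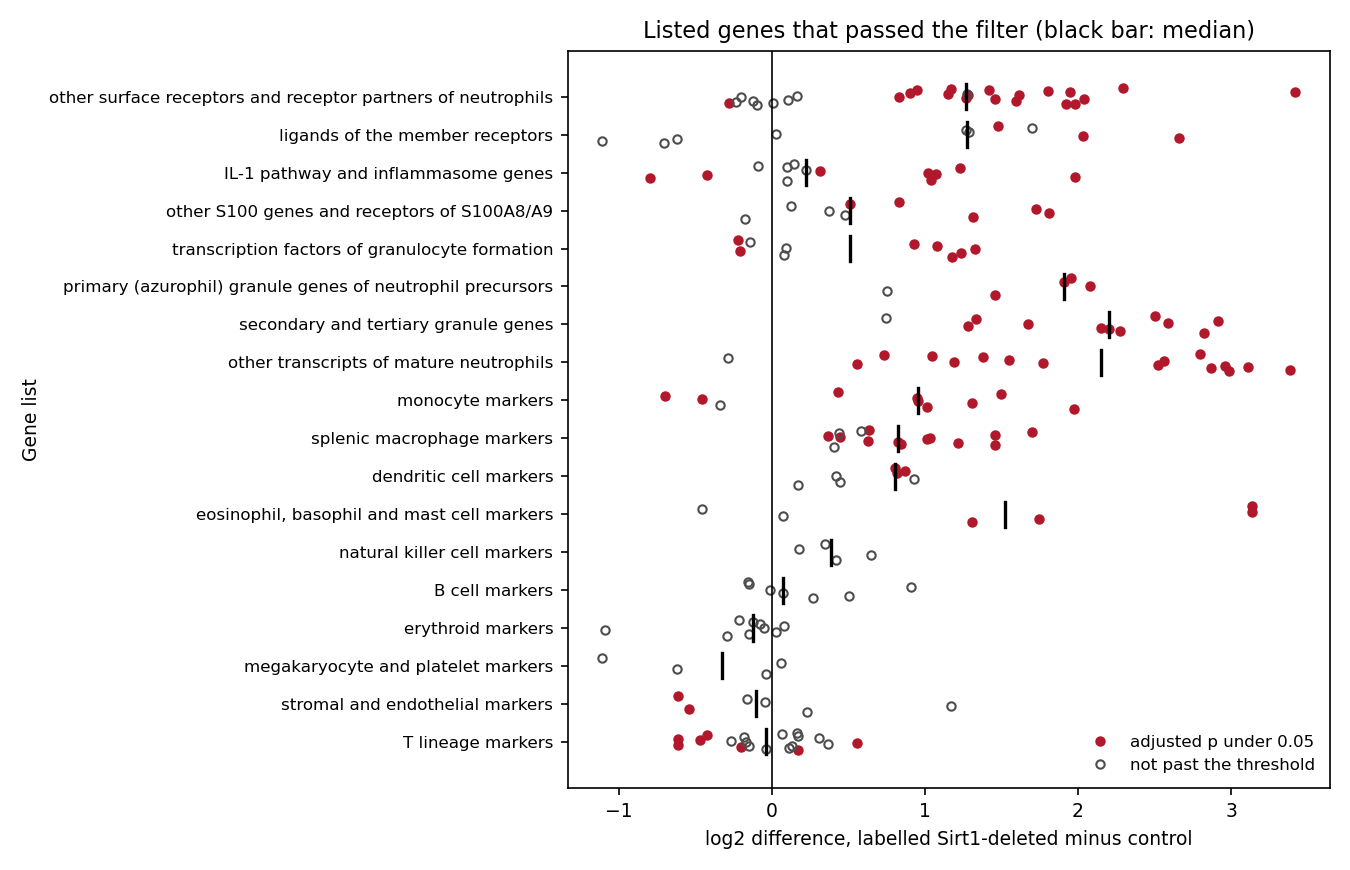
Log2 difference (horizontal) of every tested gene of 18 lists, 1 list per line, with red points for genes past the threshold and a black bar at the list median. The medians of the granule lists are between 1.91 and 2.20, and those of the B cell, erythroid and T lineage lists are at 0.07, -0.12 and -0.04.

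Several of the 10 genes are also transcribed by other myeloid cells, whose markers moved as well. Splenic macrophage markers summed to 4846 to 6657 normalized counts in deleted and 2910 to 3464 in control spleens, and 12 of 15 rose, led by Siglec1 (1.70), C1qa (1.46) and Mrc1 (1.46). Of 10 monocyte markers 7 rose and 2 fell, while their sum, 3876 to 4951 in deleted and 4160 to 4886 in control spleens, did not separate the groups. Ly6c2 rose by 1.97, and Nr4a1 and Ace fell by 0.70 and 0.46. Nr4a1 was the largest part of the sum, at 2560 ± 331 normalized counts in controls and 1574 ± 140 in deleted spleens. The sum therefore hides the rises of smaller markers, such as Ly6c2 and Ccr2, at 133 ± 25.3 and 68.3 ± 13.5 in controls. Which cells held the Nr4a1 transcripts was not tested, so its fall is not a measure of monocytes. Eosinophil, basophil and mast cell markers summed to 165 to 288 against 96.3 to 123, with 4 of 6 tested called higher. Of these 4, Prss34, a basophil protease gene (3.95 ± 2.69 to 44.4 ± 22.5), Mcpt8 and Prg2 had control means below 10, so they entered the test only through the deleted spleens, while Siglecf, Fcer1a and Ms4a2 were left out as low. The count was 2 without deleted replicate 8. Dendritic cell markers summed to 279 to 512 against 227 to 291, and 3 of 7 tested rose, a count of 1 without control replicate 2 or deleted replicate 12. The part of these cells in the rise of Itgam, Il1b or the alarmins was not tested.

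Markers of other lineages were called less often than those of neutrophils. None of 4 tested natural killer cell markers, 7 B cell markers, 9 erythroid markers or 4 megakaryocyte markers passed in limma without sample weights, and at an unadjusted p under 0.05 the counts were 0, 2, 1 and 1. Their median log2 differences were 0.39, 0.07, -0.12 and -0.33 in that order. The natural killer cell markers ran from 0.18 for Gzma to 0.65 for Eomes, and the B cell marker Pax5 was at 0.91 (limma adjusted p = 0.0577). A marker that did not pass is not shown to be unchanged. With sample weights 1 B cell and 2 megakaryocyte markers were called. Leaving out single spleens gave 1 B cell marker without control replicate 3 and 2 without deleted replicate 10, 1 erythroid marker without control replicate 3 or deleted replicate 11, and 2 megakaryocyte markers without control replicate 2 and 1 without deleted replicate 10. Erythroid sums varied from 29419 to 145959 in deleted and from 31343 to 120933 in control spleens. Of 6 tested stromal and endothelial markers 2 fell (Pdgfrb by 0.61 and Col1a2 by 0.54), a count of 0 without control replicate 2 and of 1 without control replicate 4 or 5 or deleted replicate 7. Levels in this list were uneven in controls, from 3252 ± 70.8 for Pecam1 and 2170 ± 365 for Pdgfrb to 1.65 ± 1.47 for Dcn. Which cells held these transcripts was not tested. Of 19 T lineage markers 2 rose (Thy1 by 0.56 and Cd3d by 0.17), 5 fell and 12 did not pass, with a median of -0.04. The largest falls were in Rag1 and Cd5 (0.61 each) and Cd8b1 (0.47). Of all tested genes, 36.1% were called in either direction.

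Among the other tested genes whose log2 values over the 10 spleens were most like the mean of the 10 neutrophil genes were Ltf (Pearson r = 0.993), Mmp9 (0.990), Mcemp1 (0.990) and Spi1 (0.988). For deviations from the group means they were Ifitm2 (0.974), Spi1 (0.972), Sp110 (0.971), Anxa2 (0.967) and Hdc (0.967). Sp110 and Anxa2 followed the spleen-to-spleen order without a difference between the groups, at log2 differences of 0.03 and -0.04, the latter turning to 0.02 after upper-quartile rescaling or quantile normalization. No p is attached to these values, which were picked as the highest of many over shared libraries.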

How the data were processed

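RNA-seq of 10 leukemic spleens, 5 per genotype label, was analysed. The deposited table holds 1 column per sample and 0 columns outside the series. Its values are a normalized signal, which the authors named as DESeq-normalized counts. The submitters' processing notes name kallisto 0.44.0, DESeq and mm10, without roles. Annotation, gene filter and strand setting are not given in the sources used here.

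Low values were tested for whole reads: 68.0% to 74.0% of values up to 8.5 units lay within 0.1 of a whole multiple of the commonest low value, so reads were not recovered and no count test was run. By that value depth was about 31400000 to 38500000 reads, an estimate, so no counting intervals are given. limma 3.58.1 (R 4.3.3; group as the only term, intensity trend) was fitted to log2(value + 1) of the 15276 genes with a mean of at least 10, with Benjamini-Hochberg adjustment at 0.05. Log2 differences on this scale understate changes of low genes. The script was tested on simulated data. Ratios of gene pairs were compared by exact two-sided permutation.

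The genes, lists and alternatives were chosen with earlier results of these data known. Named are the 10 genes, Sirt1, up to 3 called genes per direction of each list, and the genes most alike in pattern, of which 1 is not reported here. Liver transcripts, ligands that were not called, Elane, Tyrobp, Itgb2, Tcf7 and genes with low control means are named outside this rule, after their values were seen. Coordinates, lengths and overlaps are from GENCODE M21 (GRCm38), promoters from RefSeq (GRCm38.p6). No proteins are printed. Alternatives were other pseudocounts, filters, scalings, limma settings, an exact rank-sum test, a stricter threshold and the omission of samples.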

Additional observations from a re-analysis of the deposited data

Results flagged for a closer look

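Among 58 sets of 5 spleens (the 10 neutrophil genes, Sirt1 and the summed level of 18 lists, in each group), 5 had an extreme spleen whose gap to its neighbour was more than 0.71 of the group range, the 95% limit of Dixon. About 1 set in 20, or 2.9 here, passes this limit by chance. Control replicate 4 was the highest control for S100a8, at 2403 normalized counts against 1682 to 1761 (ratio 0.890), and for the sum of secondary and tertiary granule genes, at 9234 against 6171 to 6805 (ratio 0.793). Deleted replicate 8 was the highest of its group for Cebpe, at 278 against 103 to 143 (ratio 0.776), for the sum of receptor ligands, at 7513 against 3406 to 4481 (ratio 0.738), and for the sum of monocyte markers, at 4951 against 3876 to 4108 (ratio 0.785). Without deleted replicate 8 the log2 difference of Cebpe was 1.48 (limma adjusted p = 4.20e-04), and without control replicate 4 that of S100a8 was 2.36.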

How the results depend on the processing

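No paired analysis was possible because sample numbers in the titles coincide in no instance between deleted and control spleens. The genes called numbered 10 of 10 under both other pseudocounts, minimum means of 1 or none, upper-quartile rescaling and both other limma settings, 9 after quantile normalization, 8 with the exact rank-sum test or at 0.01, 9 to 10 without single samples, and 7 at a minimum mean of 50, which left 7 tested. Directions of all 10 held throughout. All tested genes called were 2850 at an adjusted p under 0.01, 3659 with the exact rank-sum test and 4207 to 6259 without single samples. The 3659 equal the tested genes whose groups did not overlap in either direction. Counts from the exact rank-sum test, here and for the lists, are therefore counts of separation and not a separate check. Upper-quartile rescaling turned the split of 2562 higher and 2956 lower into 3162 and 2272. Called genes of the lists moved by more than 1.5 times with the exact rank-sum test in the interleukin-1 (8 to 5), S100 (5 to 2), primary granule (4 to 1), mature neutrophil (15 to 7), eosinophil, basophil and mast cell (4 to 2), dendritic (3 to 0) and stromal (2 to 0) lists. At an adjusted p under 0.01 the interleukin-1, S100, primary granule, dendritic, stromal and T lineage counts were 4, 2, 2, 0, 0 and 4. At a minimum mean of 50, which tests fewer genes, those of other receptors, mature neutrophil and eosinophil, basophil and mast cell genes were 11, 9 and 1. Quantile normalization called 5 ligands and 2 megakaryocyte markers, counting rises and falls together, and no dendritic cell marker. Pairs of genes called were 16 with a pseudocount of 5, 0 at an adjusted p under 0.01, 0 to 9 without single samples and 0 without deleted replicates 10 and 11 together, where 20 pairs had an unadjusted p under 0.05 and the smallest possible p was 0.0179. The 0 at 0.01 was nearly fixed by the design, since most of the 45 pairs would have to reach the smallest p of 0.00794. Anxa2 changed sign with sample weights (0.0135), quantile normalization (0.0157), upper-quartile rescaling (0.0155), and without replicates 10 and 11 (0.0719), and ranged from -0.112 to 0.0178 without single samples, positive without deleted replicate 10. Sp110 ranged from -0.0204, without deleted replicate 8, to 0.0835 without single samples; the cause was not tested. Depth limits Trem1 and Il1b most, whose control values lay between 4.13 and 19.5 normalized counts.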
